A study of Homo sapiens with 6 samples.

Results

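Transcription factors that set gastric and intestinal identity were followed in the human gastric cancer cell line YCC3 after silencing of CTNNB1. The set was fixed by name: GATA4, GATA6, SOX2, CDX1, CDX2, HNF4A, FOXA1 and FOXA2. A gene counted as measured where a row of the array table carried its symbol and no other, and 7 of the 8 had such a row, among 18417 genes in all. HNF4A was not analysed here. Each of the 7 had exactly 1 row, so no choice between rows was needed.

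One group of 3 samples was YCC3 cells transfected with siRNA against CTNNB1, and the other group of 3 was YCC3 cells transfected with non-targeting control siRNA. Such short double-stranded RNAs lead the cell to destroy mRNA of matching sequence. RNA was taken 48 hours after transfection from cells grown in plates, and 500 ng of each was labelled for 1 Affymetrix array, on which many short probes cover each gene. The labels call the samples biological replicates without saying whether they were separate cultures or days, and give no siRNA sequences, so the p-values rest on the spread among 6 samples of a single line, which may be technical. The values are log2 signals made by the authors, and a difference of 1 is a doubling.

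In the embryo, SOX2 marks the foregut that becomes stomach, and the caudal-type homeodomain factors CDX1 and CDX2 mark the future intestine. The zinc finger factors GATA4 and GATA6 and the forkhead factors FOXA1 and FOXA2 act across the whole endoderm, where FOXA proteins are known to open closed chromatin for other factors. Intestinal metaplasia of the stomach, a lesion that can precede gastric cancer, is known for the appearance of CDX1 and CDX2. CTNNB1 encodes beta-catenin, the transcriptional co-activator of Wnt signalling, and CDX1 is a known Wnt target in the intestine. The comparison asks whether transcripts of these factors move when beta-catenin mRNA is reduced.

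None of the 7 measured factors passed the test, and the factor nearest to passing was CDX2, whose signal was 1.30-fold that of control (95% confidence interval 1.10 to 1.53; limma, adjusted p = 0.0750). CDX1 lay on the same side, at 1.18-fold (0.984 to 1.41). For GATA4, GATA6, SOX2, FOXA1 and FOXA2 the log2 changes lay between -0.07 and 0.08. A gene passed where the Benjamini-Hochberg adjusted p of limma over all 18417 genes was under 0.05, and 4.72% of all genes did so. CTNNB1 itself fell by 0.77 ± 0.10 (SE) log2 units in the same fit (limma, adjusted p = 0.00267), and its groups did not overlap.

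The promoter of CDX2 is shown because CDX2 had the largest change of the set, and that of FOXA1 because its change was the smallest. Both are the 250 bases before the transcription start on the gene's own strand, from RefSeq on GRCh38.p14, where 4 of the 7 measured factors (CDX2, FOXA1, SOX2 and GATA6) were matched. Capitals mark matches, on either strand, to short cores known for 5 families: CTTTGA for TCF/LEF factors, AGATAA for the zinc finger GATA family, TTTATG for CDX factors, TGTTTAC for FOXA factors and CATTGT for SOX factors.
CDX2, chr13:27969316-27969565, minus strand: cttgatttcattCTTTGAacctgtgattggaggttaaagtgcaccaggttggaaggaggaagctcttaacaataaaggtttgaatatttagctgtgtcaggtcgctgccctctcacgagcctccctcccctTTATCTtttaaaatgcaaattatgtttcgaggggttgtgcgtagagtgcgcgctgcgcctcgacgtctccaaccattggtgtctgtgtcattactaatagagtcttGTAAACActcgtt
FOXA1, chr14:37595250-37595499, minus strand: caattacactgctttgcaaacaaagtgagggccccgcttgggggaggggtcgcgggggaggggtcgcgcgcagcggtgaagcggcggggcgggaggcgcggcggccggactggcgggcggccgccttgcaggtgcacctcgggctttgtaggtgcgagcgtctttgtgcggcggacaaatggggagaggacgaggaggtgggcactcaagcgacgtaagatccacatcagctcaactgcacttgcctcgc
The CDX2 promoter held a TCF/LEF core from 238 to 233 bases before the start, a GATA core on the opposite strand from 119 to 114 bases before it, and a FOXA core on the opposite strand from 13 to 7 bases before it. No matches overlapped. The windows of FOXA1, SOX2 and GATA6 had none of these 5 letter strings. Among 35116 promoter windows of the same length, 11.2% held the TCF/LEF core, 9.17% the GATA core, 9.64% the CDX core, 2.98% the FOXA core and 9.29% the SOX core. A match of letters is not a bound site, and these arrays measured no binding.

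CDX2, the factor that directs and maintains intestinal identity, measured 7.48, 7.66 and 7.69 in control replicates 1, 2 and 3 and 8.12, 7.92 and 7.92 in CTNNB1 siRNA replicates 1, 2 and 3. Every CTNNB1 siRNA array was above every control array, with 0.23 log2 units between the nearest. The control mean was 7.61 ± 0.12 and the CTNNB1 siRNA mean 7.99 ± 0.12 (SD, n = 3 each). The difference, 0.38 ± 0.11 (SE) on the log2 scale, did not pass (limma, unadjusted p = 0.00525, adjusted p = 0.0750). CDX2 ranked 1290th of all genes by p, and 20.3% of all genes had an unadjusted p under 0.05, which among the 7 factors only CDX2 had. The call depended on processing: CDX2 passed in 5 of 14 other settings, with adjusted p between 0.0159 and 0.0417, and in none of the 6 that left out 1 array. The highest of those 6 was 0.268, without control replicate 1.

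CDX1, its paralog, measured 6.64, 6.80 and 6.38 in the control arrays and 6.88, 6.83 and 6.83 in the CTNNB1 siRNA arrays, in replicate order. The groups did not overlap here either, but only 0.03 log2 units separated the highest control array from the lowest CTNNB1 siRNA array. The control arrays spread widely (6.61 ± 0.21, SD, n = 3) and the CTNNB1 siRNA arrays narrowly (6.84 ± 0.03, SD, n = 3). The difference was 0.24 ± 0.12 (SE) log2 units, with an adjusted p of 0.293 in limma. Without control replicate 3, the lowest array, it was 0.12, and without control replicate 2 it was 0.33. CDX1 and CDX2 were the 2 of 7 factors whose groups did not overlap, both with CTNNB1 siRNA higher. Over all genes the groups of 26.0% did not overlap, 10.8% with CTNNB1 siRNA higher and 15.2% with it lower, and the count of 2 among 7 is near the share for both directions together.

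**Figure D1:**
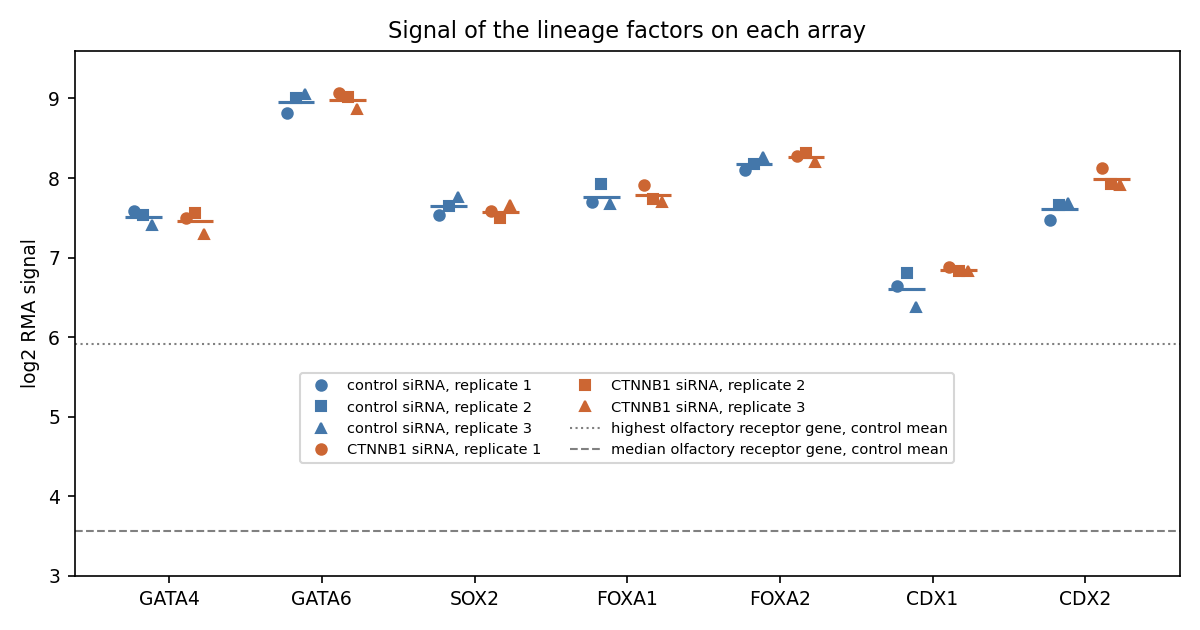
Log2 RMA signal (y axis) of the 7 measured lineage factors (x axis) on each array. Points are single arrays (blue, control siRNA; orange, CTNNB1 siRNA; the symbol gives the replicate number), short lines are means of 3, and the grey lines are the median (3.56) and the highest (5.92) control mean among 341 olfactory receptor genes. The groups are apart for CDX1 and CDX2 and overlap for the other 5 factors.

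GATA6, which is required for endoderm and is often amplified in gastric cancer, measured 8.822, 9.002 and 9.057 in the control arrays and 9.07, 9.02 and 8.87 in the CTNNB1 siRNA arrays. The lowest array was a control and the highest a CTNNB1 siRNA array, and the others interleaved. The difference was 0.02 ± 0.11 (SE) log2 units (limma, adjusted p = 0.929). GATA4, its partner in foregut and stomach, measured 7.59, 7.54 and 7.41 against 7.50, 7.57 and 7.30, in the same order. Its log2 change was -0.06 ± 0.11 (SE; limma, adjusted p = 0.807), and its groups overlapped as well.

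SOX2, the HMG box factor of foregut and gastric epithelium, measured 7.54, 7.65 and 7.76 with control siRNA and 7.58, 7.49 and 7.66 with CTNNB1 siRNA. The groups overlapped, and the log2 change of -0.07 ± 0.10 (SE) was the lowest of the set (limma, adjusted p = 0.741). The 95% confidence interval ran from -0.30 to 0.15.

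FOXA2, a pioneer factor of early endoderm, measured 8.10, 8.17 and 8.26 with control siRNA and 8.27, 8.31 and 8.20 with CTNNB1 siRNA. The control array of replicate 3 lay above 1 CTNNB1 siRNA array, and the log2 change was 0.08 ± 0.10 (SE; limma, adjusted p = 0.691). FOXA1, the related factor of gut, lung and breast epithelium, measured 7.70, 7.92 and 7.68 against 7.91, 7.74 and 7.70. Its groups covered almost the same range, and its log2 change of 0.02 ± 0.11 (SE) was the smallest in size (limma, adjusted p = 0.952). For GATA4, GATA6, SOX2, FOXA1 and FOXA2 the unadjusted 95% confidence intervals lay between 0.81-fold and 1.23-fold of control. These intervals are not limits of detection. In simulated data with 3 arrays a group, 0% of changes of 0.25 log2 units passed, 16% of those of 0.5 and 80% of those of 1. Far fewer genes were changed in the simulation than the 870 that passed here, which makes the adjusted threshold harder to reach. These shares may therefore be too low for the real arrays.

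**Figure D2:**
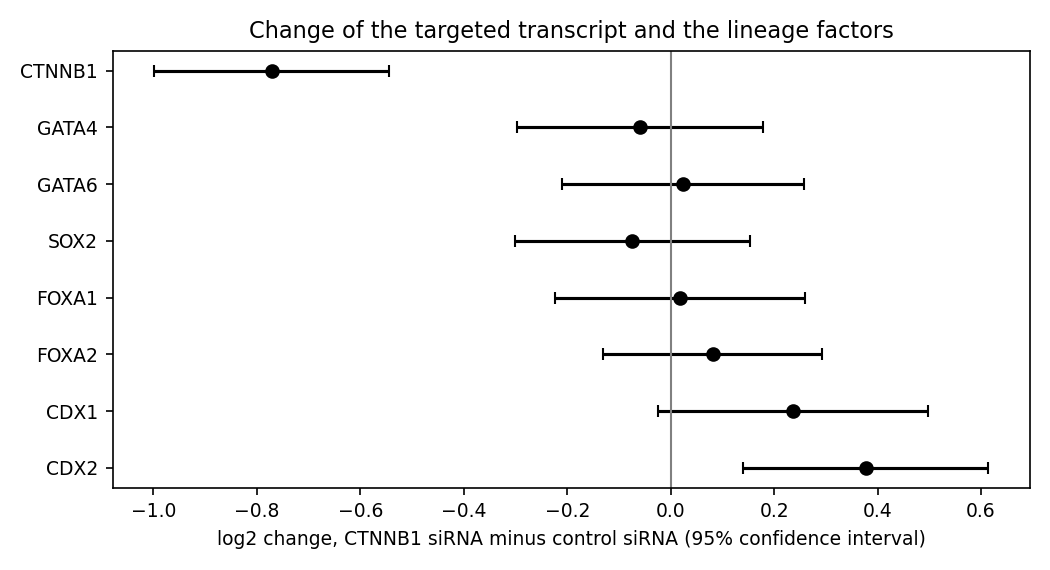
Log2 change, CTNNB1 siRNA minus control siRNA (x axis), of CTNNB1 and the 7 lineage factors (y axis), with 95% confidence intervals from limma, n = 3 arrays a group. The interval of CTNNB1 (-0.998 to -0.54) lies below 0, that of CDX2 (0.14 to 0.61, without adjustment for multiple tests) above it, and those of the other 6 include 0.

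The median log2 change of the 7 factors was 0.02, against 0.006 over all genes. The median size of change, regardless of sign, was 0.07 for the factors and 0.13 over all genes. Of the 7 changes 5 were positive and 2 negative.

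Within families the paralogs were set against each other on the same array, which removes a shift that is equal for all genes of an array. Scaling that varies with signal level is not removed. The CDX2 minus CDX1 difference was 1.00 ± 0.27 in control arrays and 1.14 ± 0.09 in CTNNB1 siRNA arrays (SD, n = 3 each). The change in this difference was 0.14 ± 0.16 (SE), with an exact two-sided permutation p of 0.40 (0.70 adjusted over 3 pairs), and its 2 groups overlapped. For GATA6 minus GATA4 the change was 0.08 ± 0.13 (SE) and for FOXA2 minus FOXA1 0.06 ± 0.11 (SE), each with an exact permutation p of 0.70. The smallest p that 3 arrays against 3 can give is 0.10, so none of these tests could have passed 0.05, and they do not show whether paralogs changed unequally. The levels behind these differences come from different probes and do not rank the genes by amount of mRNA.

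All 7 factors gave control signals above those of every one of 341 olfactory receptor genes, which a gastric line is not expected to transcribe and whose control means had a median of 3.56 and a highest value of 5.92. CDX1, at 6.61, was nearest to them. This reference is only a rough one, because SOX3, a neural factor that a gastric line would not be thought to need, was also bright, at 7.27 with control siRNA. Whether the signals of the factors, among them CDX2 at 7.61, come from their transcripts or from probe background was not tested. In bulk RNA, a change in the share of cells with a transcript and a change in its amount per cell cannot be told apart.

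Close relatives of the factors, listed beside them, gave no call as deposited: of 9 (GATA1, GATA2, GATA3, GATA5, SOX1, SOX3, CDX4, HNF4G and FOXA3) none passed limma's threshold, and 1 had an unadjusted p under 0.05. That gene was SOX3, at 0.33 ± 0.11 (SE) log2 units (limma, adjusted p = 0.130), which passed as a rise with the dimmest 50% of genes removed (adjusted p = 0.0367). HNF4G, the intestinal relative of HNF4A, measured -0.11 ± 0.11. GATA5, another endodermal GATA factor, measured 0.13 ± 0.10. CDX4 measured 0.12 ± 0.12 at a control signal of 4.18, within the range of olfactory receptor genes. The median log2 change of the relatives was 0.05. Their groups did not overlap in 2 of 9, against 26.0% over all genes, and 20.3% of all genes had an unadjusted p under 0.05.

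Partner proteins of these factors gave no call either. None of the 7 had an unadjusted p under 0.05, against 20.3% of all genes. The list held the GATA co-factors ZFPM1 and ZFPM2, the HNF4A co-activator PPARGC1A, the inhibitory nuclear receptor NR0B2 and the Groucho-type co-repressors TLE1, TLE2 and TLE3. TLE3 measured 0.14 ± 0.09 (SE), TLE1 -0.12 ± 0.11, NR0B2 0.10 ± 0.13 and TLE2 0.07 ± 0.10 log2 units, and the median of the list was 0.07.

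Among 24 other measured factors, most of them of stomach, intestine, liver and pancreas, 1 rose, none fell and 23 did not pass. The list also held NKX2-1, known best in lung and thyroid, and NKX2-5, known best in heart. The gene that rose was ELF3, an epithelial ETS factor of the gut, by 0.48 ± 0.12 (SE) log2 units (limma, adjusted p = 0.0462), a change that did not pass when any 1 array was left out (adjusted p of up to 0.184, without control replicate 1). KLF5, a factor of proliferating gut epithelium, measured 0.28 ± 0.10 (SE; limma, adjusted p = 0.139) and passed with the dimmest 50% of genes removed (0.0431) and with a trended and robust variance (0.0430). FOXQ1, a forkhead factor of gastric mucin-producing cells, measured 0.27 ± 0.11 and NKX2-5 0.22 ± 0.09. The median of this list was 0.05. In the fit of all genes 2.07% rose and 2.65% fell (382 and 488 genes). This balance depended on processing: 488 rose and 379 fell under cyclic loess, 193 and 95 without control replicate 1, 248 and 124 without control replicate 3, 183 and 100 without CTNNB1 siRNA replicate 1, and 262 and 159 without CTNNB1 siRNA replicate 2.

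Gastric and intestinal products, which these factors are known to control in part, gave rises and no falls that passed as deposited. Of 23 measured gastric genes 3 rose and none fell, against 2.07% and 2.65% of all genes. The groups of 8 did not overlap with CTNNB1 siRNA higher and of 2 with it lower, against 10.8% and 15.2% over all genes. The 2 lower genes were CBLIF and PGC, which did not pass. PGC, named after its values were seen, was bright (9.26 with control siRNA) and measured -0.25 ± 0.10 (SE; limma, adjusted p = 0.202). TFF1, a trefoil peptide of surface mucous cells, rose 2.22-fold (log2 change 1.15 ± 0.11, SE). PSCA, a surface antigen of gastric epithelium, rose 1.65-fold (limma, adjusted p = 0.00562), with means of 6.06 ± 0.07 and 6.78 ± 0.16 (SD, n = 3 each). CLDN18, the tight junction claudin whose gastric form lines the stomach, rose 1.44-fold (limma, adjusted p = 0.0380), with means of 11.21 ± 0.23 and 11.74 ± 0.03 (SD, n = 3 each). CBLIF, gastric intrinsic factor, measured -0.40 ± 0.10 (limma, adjusted p = 0.0512) at a control signal of 4.86, within the range of olfactory receptor genes. It passed as a fall under each of the 3 other scalings, with adjusted p from 0.0397 to 0.0461. With the dimmest 50% of genes removed, where 20.2% of all genes passed, MUC1 (adjusted p = 0.0295), ANXA10 (0.0431) and SULT1C2 (0.0262) passed as rises. MUC1 also passed with a trended and robust variance (0.0264). TFF1 and PSCA passed with any 1 array left out. CLDN18 passed without control replicate 2 and failed in the other 5 such fits, with adjusted p of up to 0.141 without control replicate 1.

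Of 29 measured intestinal genes 3 rose, none fell and 26 did not pass, where 2.07% of all genes rose and 2.65% fell. MUC13, a membrane mucin, rose 1.37-fold (limma, adjusted p = 0.0258), with means of 12.03 ± 0.06 and 12.48 ± 0.08 (SD, n = 3 each). GPA33, a membrane antigen of intestinal epithelium, rose 1.56-fold (limma, adjusted p = 0.0349), and CDHR5, a protocadherin of the brush border, 1.55-fold (limma, adjusted p = 0.0450). FABP2, the intestinal fatty acid carrier, measured 0.43 ± 0.11 (SE; adjusted p = 0.0511) at a control signal of 3.05, below the median of olfactory receptor genes. It passed without CTNNB1 siRNA replicate 3 (adjusted p = 0.0473). None of the 3 calls held in every fit without 1 array. MUC13 passed only without CTNNB1 siRNA replicate 2 (highest adjusted p 0.128, without control replicate 1) and GPA33 only without control replicate 2 (highest 0.145, without CTNNB1 siRNA replicate 1). CDHR5 passed without control replicate 2 or CTNNB1 siRNA replicate 3 (highest 0.168, without control replicate 1).

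Across the 29 genes the log2 changes ran from -0.10 for CDH17, an intestinal cadherin, to 0.64 for GPA33. The groups of 11 did not overlap, each with CTNNB1 siRNA higher, and none did so with it lower, against 10.8% and 15.2% over all genes. Those 11 were the 3 called genes, FABP2, and 7 that did not pass and are named after their values were seen: KRT20 (0.40 ± 0.12, SE), a keratin of gut epithelium, ALPI (0.39 ± 0.13), the intestinal alkaline phosphatase, REG4 (0.42), HEPH (0.32 ± 0.11), a ferroxidase of iron export, CDHR2 (0.31 ± 0.12), the brush border partner of CDHR5, APOA4 (0.27) and GUCY2C (0.10). Control signals of FABP2 (3.05), GUCY2C (4.95), KRT20 (5.50), APOA4 (5.59) and CDHR2 (5.79) lay within the range of olfactory receptor genes, whose highest was 5.92. Those of REG4 (6.06), ALPI (6.54), HEPH (7.60) and the 3 called genes lay above it. KRT20 passed with the dimmest 25% of genes removed (limma, adjusted p = 0.0474), and ALPI (0.0331) and HEPH (0.0396) with the dimmest 50% removed. CDH17 and LGALS4, an intestinal lectin, were bright in the control arrays (11.01 and 12.82), and their groups overlapped.

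The liver genes known as targets of HNF4A and FOXA factors had 1 rise and no fall among 22, against 2.07% and 2.65% of all genes. The groups of 4 did not overlap with CTNNB1 siRNA higher and of 2 with it lower, against 10.8% and 15.2% over all genes. PCK1, an enzyme of glucose synthesis, rose 1.90-fold (limma, adjusted p = 0.0209), with means of 6.50 ± 0.43 and 7.43 ± 0.14 (SD, n = 3 each). Without CTNNB1 siRNA replicate 1 its adjusted p was 0.103 and without CTNNB1 siRNA replicate 3 it was 0.0530. FGB, the fibrinogen beta chain, measured -0.55 ± 0.15 (SE; adjusted p = 0.0654), and passed as a fall with the dimmest 25% of genes removed (adjusted p = 0.0319) and with a trended and robust variance (adjusted p = 0.0339). F9 (0.26 ± 0.10) and ALB (0.28 ± 0.11) had control signals of 2.41 and 3.11, and 14 of the 22 genes lay at or below 4.99, the 95th percentile of olfactory receptor genes.

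The median log2 changes were 0.14 for gastric, 0.17 for intestinal and 0.10 for liver genes, against 0.006 over all genes, and were positive under each scaling tried. Positive values were found for 16 of 23, 25 of 29 and 16 of 22 genes. Many of these genes were dim, and the median over the olfactory receptor genes themselves was 0.05. These counts and medians describe the lists and were not tested against other genes.

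**Figure D3:**
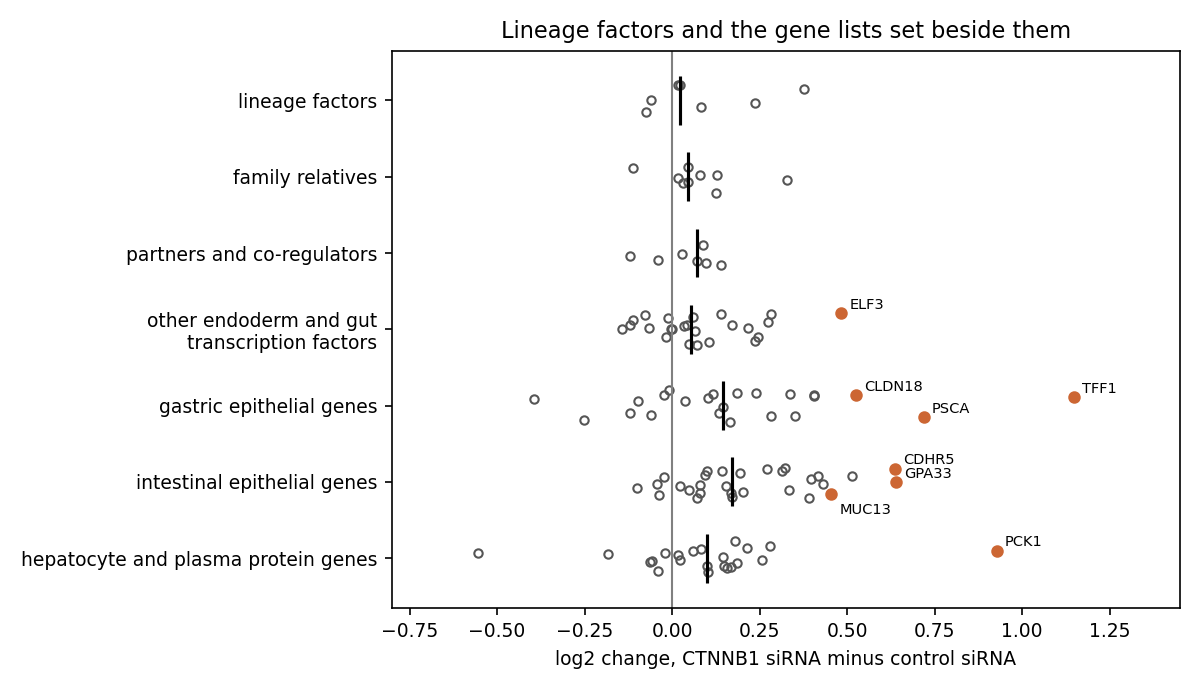
Log2 change, CTNNB1 siRNA minus control siRNA (x axis), of each measured gene in the lineage factor set and in 6 lists set beside it (y axis). Open circles did not pass limma's threshold, filled and named circles did, black lines are list medians, and vertical scatter within a list has no meaning. No lineage factor passed, and the 8 filled genes all lie to the right of 0.

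The genes whose pattern over the 6 arrays was most like that of CDX2 were KRT14, OR10J1 and MAFF, by the root mean square distance between log2 values centred on each gene's own mean. The distances were 0.022 for KRT14, a keratin of squamous epithelium, 0.023 for OR10J1, an olfactory receptor gene, and 0.028 for MAFF, a small bZIP factor. None of the 3 passed the threshold, with log2 changes of 0.34, 0.40 and 0.41. OR10J1 is dim (3.28 with control siRNA), so a pattern of this size was also found in a row not shown to be above background.

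Array medians ranged from 5.88 to 5.95. The label of an epithelial line was checked with 8 markers, all bright: EPCAM, CDH1, KRT8, KRT18, KRT19 and 3 claudins had control signals from 8.92 to 13.57. CLDN4 rose and the other 7 did not pass, with KRT18 at -0.29 ± 0.10 (SE; a fall that passed with the dimmest 50% of genes removed, adjusted p = 0.0373, and with a trended and robust variance, 0.0168), CLDN7 at 0.25 ± 0.10 and CLDN3 at 0.30 ± 0.13. Leukocyte, endothelial and fibroblast markers were mostly dim. PTPRC (2.58), the pan-leukocyte marker, and CDH5 (4.63), of endothelium, lay within the range of olfactory receptor genes. At or below the 95th percentile of those genes were 4 of 5 leukocyte and 5 of 7 endothelial and fibroblast markers. COL1A1 (6.66), of fibroblasts, and the squamous KRT13 (7.19) and KRT14 (6.60) lay above every olfactory receptor gene. Of 5 squamous markers 4 were above the 95th percentile. None of these 17 markers, the 5 squamous ones included, was called by limma as deposited. Only KRT14 had an unadjusted p under 0.05, and it passed with the dimmest 50% of genes removed (adjusted p = 0.0269). A short list of 10 interferon-stimulated genes was set up because earlier results of these data showed such genes to move with the groups. All 10 rose, with a median log2 change of 2.96, so their rise describes that choice and is not a separate test. The part of this response in the values of CDX2 and of the gastric and intestinal genes was not tested.

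**Figure D4:**
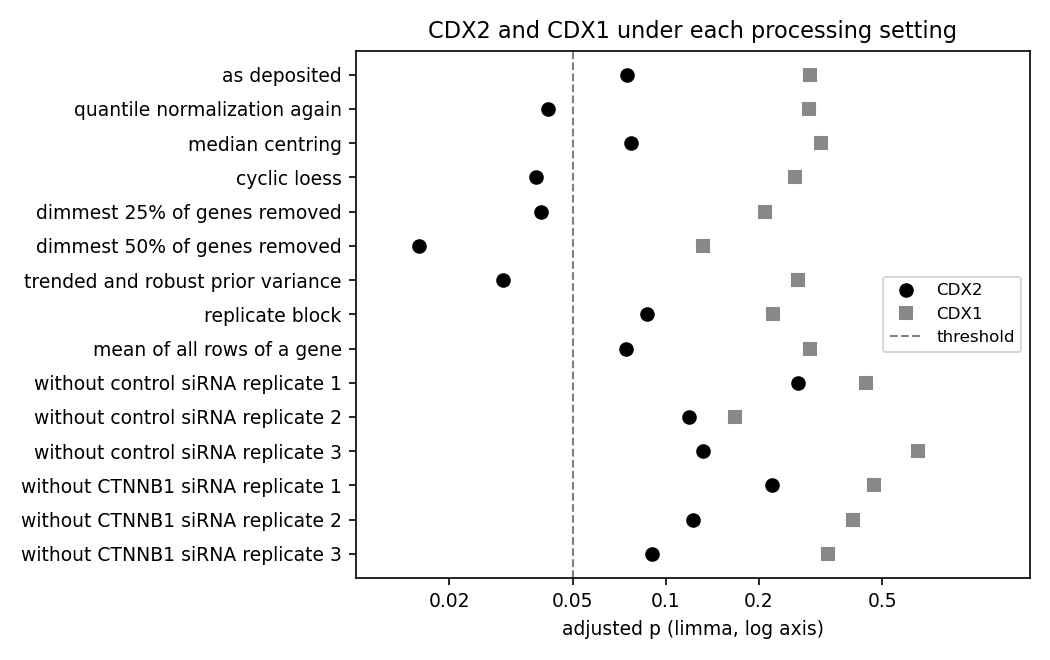
Adjusted p from limma (x axis, log scale) for CDX2 (circles) and CDX1 (squares) as deposited and under 14 other settings (y axis), with the threshold of 0.05 dashed. CDX2 is left of the threshold in 5 settings and right of it in the rest, and CDX1 is right of it in all.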

How the data were processed

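Transcripts were measured in 6 samples, 3 per siRNA group, assigned by sample title. The authors deposited log2 signals processed by RMA in Affymetrix Expression Console 1.1, per the submitters' processing notes. RMA gives all arrays like distributions, which hides any change common to most genes. That the scale is log2 follows from the range of the values. Genome build and annotation version: not given in the sources used here. Without scanner intensities no probe has a background call, and the number of arrays limits the precision.

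Of 33297 rows, 19460 carried 1 gene symbol, 1754 several and 12083 none, and keeping each gene's brightest row left 18417 genes. The fit was limma 3.58.1 under R 4.3.3, using lmFit with eBayes and no replicate block. Differences are CTNNB1 siRNA minus control siRNA, p-values are two-sided and were Benjamini-Hochberg adjusted across all 18417 genes (threshold 0.05), and SE is the moderated standard error. The script was tested on simulated data. The factors and gene lists were chosen with earlier results of these data known. Genes named are the factors, CTNNB1, up to 4 per list with the smallest p, and the 3 patterns nearest to the factor with the smallest p. Any other gene was named after its values were seen, or only as a member of its list. The 14 list symbols without a row were not analysed here. Among them was GIF, an older symbol of CBLIF, which was measured. Other settings tried were 3 other scalings, 2 filters on dim genes, another variance model, a replicate block, the mean of all rows, and leaving out each array.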

Additional observations from a re-analysis of the deposited data

How the results depend on the processing

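The number of lineage factors called was 0 as deposited. It was 1, CDX2 each time, with quantile normalization again (log2 change 0.42, adjusted p = 0.0417), cyclic loess (0.43, adjusted p = 0.0382), the dimmest 25% of genes removed (adjusted p = 0.0395), the dimmest 50% removed (adjusted p = 0.0159), and a trended and robust variance (adjusted p = 0.0298). Removing dim genes leaves fewer tests, 13813 and 9209, and the share of genes called rose to 10.7% and 20.2%. Why CDX2 passed in any of these settings was not tested. It was 0 with median centring, the mean of all rows, the replicate block and each array left out. Over the 14 other settings CDX2 ranged from 0.31 to 0.43 and CDX1 from 0.12 to 0.33. Only the 3 other scalings could have turned their direction. With groups that did not overlap, leaving out 1 array keeps the sign, and the remaining settings left both changes as deposited. Under the 3 scalings CDX2 ranged from 0.36 to 0.43 and CDX1 from 0.22 to 0.24. With 1 array left out, changes near 0 crossed it: FOXA1 ranged from -0.047 to 0.094, GATA4 from -0.115 to 0.018 and GATA6 from -0.045 to 0.080. The paralog differences ranged from -0.017 to 0.150 for FOXA2 minus FOXA1, from -0.024 to 0.184 for GATA6 minus GATA4 and from 0.06 to 0.29 for CDX2 minus CDX1. Calls over all listed genes numbered 19, 13 to 17 with 1 array left out, and up to 27 with the dimmest 50% removed. Of these 10 were interferon-stimulated genes in every setting. The rest, counted apart after seeing the data, numbered 9 as deposited, 3 to 7 with 1 array left out (4 without control replicate 1 or 3, 3 and 5 without CTNNB1 siRNA replicate 1 and 3), 13 with the trended variance, 11 with the dimmest 25% removed or the replicate block, and 17 with the dimmest 50% removed. The labels name no pairing, so the main fit took none. The correlation of deviations between same-numbered samples was -0.02, 0.33 and 0.22, and between differently numbered samples from -0.29 to 0.08. Whether equal numbers mark pairs was not tested. With the replicate block in limma CDX2 had an adjusted p of 0.0869 and ELF3, called as deposited, 0.0613. CBLIF (0.0424), FABP2 (0.0376) and FGB (0.0484) passed with the block, and 1177 genes were called in place of 870. Over all genes 1483 and 1861 passed with the dim genes removed, 1622 with the trended variance, 288 or 372 when control replicate 1 or 3 was dropped, and 283 or 421 when replicate 1 or 2 of the CTNNB1 siRNA group was dropped.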
